A study of Mus musculus with 2 samples.

Results

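T and NK cells of EO771 mammary tumors were the 73 cells of the tumor library that carried T-cell or NK-cell transcripts and few transcripts of macrophages or tumor cells. A cell was taken when it held at least 3 UMIs (unique molecular identifiers, each standing for 1 captured transcript) of Cd3e, Cd3d and Cd3g together, or at least 2 UMIs of Klrb1c and Ncr1 together. It also had to hold at most 10 UMIs of Lyz2, at most 4 of Rhox5 and at most 5 of C1qa, C1qb and C1qc together. The 73 cells were 7.30% of the 1000 cells of the tumor library (exact binomial 95% interval 5.77 to 9.09%) and belonged to a table of 2806 cells. Because measured values chose the cells, the levels of these genes and every difference from the other tumor cells are given as description.

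The study sequenced single cells of EO771 tumors and of normal mammary glands, with 1 library for each. EO771 is a mammary tumor cell line that grows in C57BL6/J mice without rejection. The mice were 8-week-old females of the genotype Cdh5Cre-ERT2:ZSGreenl/s/l given tamoxifen, a combination that turns on the fluorescent protein ZSGreen in cells where the endothelial Cdh5 promoter is active. The tumor library (TEC in the labels) came from tumors grown for about 3 weeks after EO771 cells had been injected into the mammary fat pad. The normal gland library (NEC in the labels) came from normal mammary glands, whose cells were prepared in the same way. Live ZSGreen+ cells were sorted from both tissues and loaded on the 10x Genomics platform with its 3′ kit. The deposited counts used here carry the mark "negs" in their name, and what it stands for was not established. Shares of a library are shares of its cells in those counts. Both libraries are labelled as endothelial cells, which the cells described here are not: 13 of 14 pan-endothelial markers were in the table, 3 of them (Tek, Cldn5 and Robo4) were at 0 in all 73 cells, and the list summed to 79.6 CPM (counts per 1000000 UMIs), with 48.4% of that from 1 cell. The sources used here do not say how many mice gave each library, or whether the normal glands came from tumor-bearing mice.

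T cells recognise peptides on other cells through a receptor whose signalling chains are the Cd3 proteins. Cd8 T cells kill infected or tumor cells that show such a peptide on class I molecules, while Cd4 T cells read class II molecules and either help other cells or, when they express Foxp3, restrain them. Natural killer (NK) cells lack that receptor and read activating and inhibitory receptors such as Ncr1 and the Klr family. Both NK cells and Cd8 T cells kill by releasing granules that hold perforin, which opens the target membrane, and granzymes, proteases that start cell death inside the target. In mice the granzyme genes Gzmb to Gzmg form a cluster that holds several close copies.

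The tumor library held 16444540 UMIs in 1000 cells with a median of 8596 UMIs per cell, and the normal gland library held 5228289 UMIs in 1806 cells with a median of 2263. Its shallowest tumor cell had 6376 UMIs, against 1157 UMIs for the shallowest normal gland cell. The 73 cells had a median of 9321 UMIs (lowest 6413, highest 42975) and 2363 genes, against 8512 UMIs and 2210 genes in the other 927 tumor cells. Mitochondrial UMIs had a median share of 1.78% in the 73 cells and 1.56% in the other tumor cells. Barcodes occurring in both libraries numbered 2, and none belonged to the 73 cells. Scrublet, a doublet caller, marked 3 tumor cells and 0 of the 73.

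With 1 library per tissue no comparison has a replicate, and no p-value is given. Levels are CPM of UMIs summed over the cells of a group. A ratio of CPM comes with an exact Clopper-Pearson 95% interval that covers counting error only and not differences between cells, mice or libraries. The size rule asks for a 2-fold or larger difference, up or down, and an interval that does not include 1; genes past it are called higher or lower. Where a group had 0 UMIs, the ratio was computed against 3 UMIs over that group and is written as "at least".

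Most of the 73 cells were marked by the Cd3 genes and stood well clear of the Cd3 limit. The Cd3 sum chose 63 cells and the sum of Klrb1c and Ncr1 chose 13, with 3 cells chosen by both. The Cd3 sum had a median of 10 UMIs and a highest value of 55. Just inside the limit lay 6 cells with a Cd3 sum of exactly 3, and just outside it lay 1 cell with a sum of 2 that kept the other limits. The cells chosen by Klrb1c and Ncr1 alone lay nearer to their limit of 2 UMIs, and some held exactly that many. A further 66 tumor cells had enough lymphocyte UMIs but were left out, 60 of them for Lyz2, 16 for C1q genes and 6 for Rhox5. Among cells with enough lymphocyte UMIs, 6 of the 73 had 9 or 10 UMIs of Lyz2 and 13 of those left out had 11 to 20. Ptprc, which encodes the pan-leukocyte protein CD45, was present in 93.2% of the 73 cells.

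**Figure D1:**
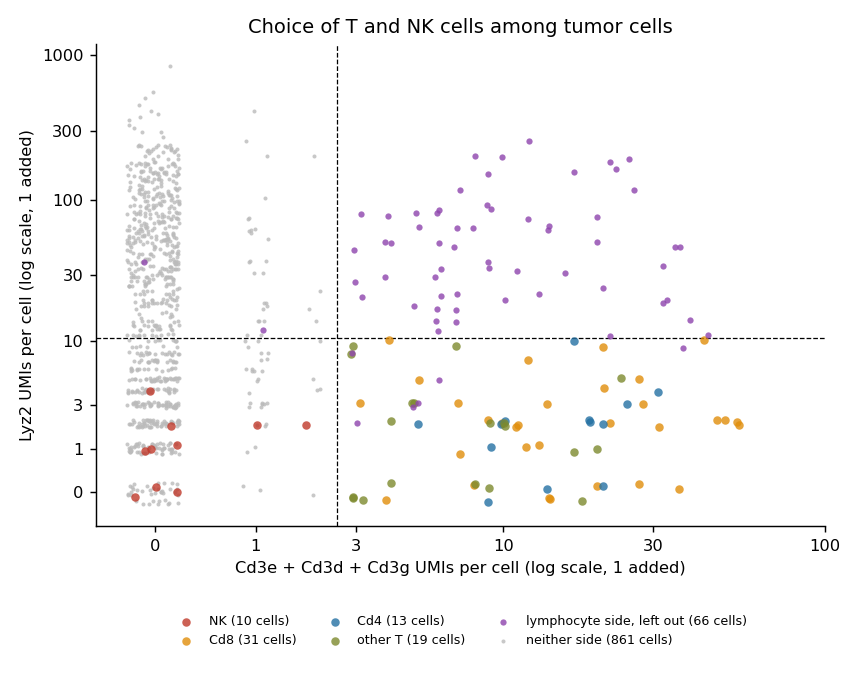
Each point is 1 of the 1000 tumor cells, with the summed UMIs of Cd3e, Cd3d and Cd3g per cell on the x axis and the UMIs of Lyz2 per cell on the y axis, both on log scales with 1 added; dashed lines mark the limits of 3 and 10 UMIs. The NK cells (10), Cd8 T cells (31), Cd4 T cells (13) and other T cells (19) are coloured, the 66 cells left out for transcripts of other cell types lie mostly above the Lyz2 limit, and 861 cells had too few lymphocyte UMIs.

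The coreceptors split the cells into Cd8 T cells, Cd4 T cells, T cells with neither call and NK cells. Cd8 T cells, with at least 2 UMIs of Cd8a and Cd8b1 together and more than of Cd4, numbered 31 (42.5%, 31.0 to 54.6%). Cd4 T cells, with at least 1 UMI of Cd4 and at most 1 of Cd8a and Cd8b1, numbered 13 (17.8%, 9.84 to 28.5%). Other T cells, the remaining cells with a Cd3 sum of at least 3, numbered 19 (26.0%, 16.5 to 37.6%). NK cells, with a Cd3 sum under 3, numbered 10 (13.7%, 6.77 to 23.8%), and with limits of 5 UMIs for the Cd3 sum and 4 for Klrb1c and Ncr1 they were 3 of 56 cells (5.36%). Other innate lymphoid cells with Klrb1c or Ncr1 would pass the same limit and were not separated, so NK names the gate. Cd8a had a lowest, median and highest count of 0, 3 and 18 UMIs per cell in Cd8 T cells, and Cd8b1 had 0, 4 and 15. Cd4 had only 1, 1 and 4 UMIs per cell in Cd4 T cells, and at such counts a Cd4 T cell with 0 UMIs cannot be told apart from the other T cells. The groups had median depths of 10234 UMIs (NK), 9005 (Cd8), 9485 (Cd4) and 8485 (other T). Genes of the T-cell receptor chains themselves (Trac, Trbc1, Trbc2, Trdc, Tcrg-C1, Tcrg-C2) were not analysed here, and the 1 gamma-delta T-cell marker in the table, Cd163l1, had 0 UMIs in the 73 cells.

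The markers given with the cell label were all present, but not in the same cells. Nkg7, a membrane protein of cytotoxic granules, had 0, 6 and 77 UMIs per cell as lowest, median and highest value and was present in 52 of 73 cells. Gzmb, the granzyme that cleaves caspases, had 0, 6 and 232 UMIs and was present in 48 of 73 cells (65.8%, 53.7 to 76.5%). Gzmc, a neighbouring granzyme gene, was present in 22 of 73 cells with a highest value of 337 UMIs. As a reading of free RNA, 120 tumor cells high in C1q genes and without Cd3 UMIs, with a median depth of 7696 UMIs, held Gzmb in 3 cells, Nkg7 in 5 and Gzmc in 4. A single one of these macrophage-marked cells held 79.2% of that group's Gzmc UMIs.

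Granzyme transcripts were concentrated in the 10 NK cells. The 7 genes Gzma to Gzmg made up a median of 3.59% of all UMIs in an NK cell (lowest 0.870%, highest 7.26%), against 0.0864% in Cd8 T cells (0 to 1.64%), 0.00975% in Cd4 T cells (0 to 0.176%) and 0.0483% in other T cells (0 to 0.600%). NK cells held 83.3% of the 73 cells' granzyme UMIs with 14.4% of their UMIs, while Cd8 T cells held 13.4% of the granzyme UMIs with 44.0% of the UMIs. No granzyme UMI was present in 9 of the 31 Cd8 T cells. The ranges of NK cells and Cd8 T cells overlapped, and those of NK cells and Cd4 or other T cells did not. A gate that uses Klrb1c and Ncr1 does not use a granzyme, but the markers given with the label include Gzmb and Gzmc.

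The mix of granzymes differed from NK cell to NK cell. In the cell with the largest granzyme share, Gzmf gave 31% and Gzma 29% of its 700 granzyme UMIs. The next cell held 1058 granzyme UMIs, of which Gzmc gave 31.9% and Gzmd 24.4%. Gzmc gave 73.5% of the granzyme UMIs of a further NK cell, which had 0 UMIs of Gzma. Gzmb gave 50.9% in another cell, and Gzma gave 66.1%, 55.4% and 66.5% in 3 more. Each of the 10 NK cells held Gzmb, with 8, 66 and 232 UMIs as lowest, median and highest value, and each held Gzmc, with 18, 111 and 337 UMIs. Gzma was present in 9 of the 10, Gzmd in 7 and Gzmf in 4.

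**Figure D2:**
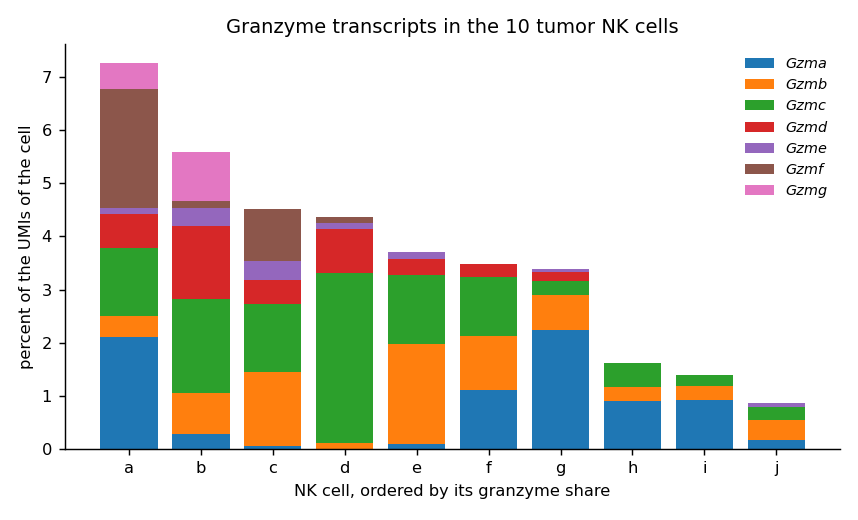
Each bar is 1 of the 10 NK cells, ordered by granzyme content, and its height is the percent of the cell's UMIs from the 7 granzyme genes, stacked by gene. The total runs to 7.26% in the highest cell and 0.870% in the lowest, and the leading gene changes from cell to cell.

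The granzyme promoters are shown because these genes were high together in the NK cells while Gzma lies on another chromosome. Gzmb to Gzmg occupy chr14:56117619-56262334 of GRCm38 on the minus strand, a stretch of 144.7 kb with 6 granzyme genes, and Gzma lies at chr13:113093824-113100981. The 250 bases before the start that the RefSeq promoter table uses (build GRCm38.p6) are given 5′ to 3′ on the gene's strand, with motif matches in capitals. For Gzmc and Gzmd that start lies inside the gene's annotated span, which for Gzmc is chr14:56231397-56241647. They cover chr13:113100982-113101231 (Gzma), chr14:56262335-56262584 (Gzmb) and chr14:56234658-56234907 (Gzmc).
Gzma: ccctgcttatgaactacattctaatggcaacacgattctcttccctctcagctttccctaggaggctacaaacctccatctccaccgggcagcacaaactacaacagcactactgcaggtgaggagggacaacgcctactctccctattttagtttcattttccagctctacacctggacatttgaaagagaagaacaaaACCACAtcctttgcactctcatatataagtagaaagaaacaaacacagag
Gzmb: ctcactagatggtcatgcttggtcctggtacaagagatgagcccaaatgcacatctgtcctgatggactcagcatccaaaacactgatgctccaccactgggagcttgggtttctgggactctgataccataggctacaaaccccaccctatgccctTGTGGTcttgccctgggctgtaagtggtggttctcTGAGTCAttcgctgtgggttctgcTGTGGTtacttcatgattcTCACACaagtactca
Gzmc: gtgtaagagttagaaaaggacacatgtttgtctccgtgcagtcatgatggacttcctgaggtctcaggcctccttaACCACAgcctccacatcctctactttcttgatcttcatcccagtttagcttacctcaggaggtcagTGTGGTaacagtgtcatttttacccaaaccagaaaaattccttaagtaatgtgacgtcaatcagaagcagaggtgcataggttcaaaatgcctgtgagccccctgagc
The letters searched on both strands were TGTGGT, the core bound by Runx factors, TGANTCA, the core bound by AP-1, and TCACAC, a core bound by T-box factors such as Tbx21 and Eomes. Gzma held 1 Runx match, starting 50 bases before the start. Gzmb held 2 Runx matches, at 93 and 34 bases, 1 AP-1 match at 58 bases and 1 T-box match at 15 bases. Gzmc held 2 Runx matches, at 174 and 108 bases, and so did each of Gzmd, Gzme, Gzmf and Gzmg, without an AP-1 or a T-box match. Over 32851 promoters of that length, 14% held a Runx match, 6.75% an AP-1 match and 12.3% a T-box match. A match describes the letters only. The last 300 bases of the Gzmd, Gzme, Gzmf and Gzmg transcripts, the end that a 3′ kit reads, were 82.4 to 87.9% identical in pairs, against 44.6 to 52.4% for the other pairs of the 7 granzyme genes, so the division of UMIs among these 4 genes is uncertain.

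Between NK cells and T cells, 99 of 2970 genes with at least 30 UMIs met the size rule as higher in NK cells (3.33%) and 413 as lower (13.9%), and the median log2 ratio over all genes compared was -0.39. Divided by the median ratio of all genes, 215 genes were higher and 195 lower. Among the 18 cytotoxic effector genes, 14 were compared, of which 12 were higher and 0 lower in NK cells (median log2 ratio 3.38). Gzma stood at 7980 CPM in NK cells and 82.8 CPM in T cells, a ratio of 96.3 (73.7 to 128). Of the T-cell Gzma UMIs, 80.7% came from 1 cell. Gzmc stood at 10984 CPM in NK cells and 122 CPM in T cells, a ratio of 90.0 (72.1 to 114). Gzmb was less far apart, with 7498 CPM in NK cells, 859 CPM in T cells and a ratio of 8.73 (7.86 to 9.71). Prf1, which encodes perforin, stood at 181 CPM in NK cells and was present in 7 of 10, with a ratio of 12.4 (5.61 to 29.6). The paralogs Gzmd (ratio 91.05), Gzme (32.7), Gzmf (31.1) and Gzmg (130) were also higher in NK cells, and 1 cell held 79.1% of the NK cells' Gzmg UMIs.

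Nkg7 separated NK cells less from Cd8 T cells than from T cells as a whole. Its level was 2092 CPM in NK cells (9, 26 and 40 UMIs as lowest, median and highest value), 1587 CPM in Cd8 T cells (0, 15 and 77), 134 CPM in Cd4 T cells and 292 CPM in other T cells. Against all T cells the Nkg7 ratio was 2.26 (1.94 to 2.62). Against Cd8 T cells alone the log2 ratio was 0.40 and the size rule was not met. Klrd1, the CD94 subunit shared by inhibitory and activating Klr receptors, stood at 809 CPM in NK cells, 424 CPM in Cd8 T cells, 0 CPM in Cd4 T cells and 88.6 CPM in other T cells. Its ratio against T cells was 3.33 (2.56 to 4.32), and against Cd8 T cells alone its log2 ratio of 0.93 missed the size rule. Gzma and Gzmc kept log2 ratios of 5.91 and 5.88 against Cd8 T cells alone.

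NK receptor and signalling genes other than the gate genes were mostly higher in NK cells. Of the NK receptors and lineage genes 12 were compared, and 10 were higher and 0 lower (median log2 ratio 1.81). Tyrobp, the adaptor DAP12 that carries the signal of activating NK receptors, had 10 to 61 UMIs in every NK cell and stood at 2987 CPM in NK cells, with a ratio of 5.17 (4.46 to 5.98) over T cells. Fcer1g, another such adaptor, stood at 2144 CPM in NK cells with a ratio of 3.41. Both adaptors are also myeloid genes, and they stood at 1194 CPM (Tyrobp) and 1461 CPM (Fcer1g) in the other tumor cells. The receptor genes Klre1 (ratio 4.91) and Klra7 (24.3) and the interleukin 2 receptor chain Il2rb (2.43) met the size rule. Klrk1, the activating receptor NKG2D, stood at 396 CPM in NK cells and 455 CPM in Cd8 T cells and did not meet the rule against T cells, with a ratio of 1.42. Eomes and Tbx21, T-box factors of NK and effector T cells, were each present in 5 of 10 NK cells, at 51.7 and 43.0 CPM.

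Further genes with a high lower bound in NK cells were a phosphoprotein, a carbonic anhydrase and a chemokine. Spp1, which encodes the secreted phosphoprotein osteopontin, stood at 6241 CPM in NK cells and 195 CPM in T cells, a ratio of 32.05 (26.6 to 38.8), with 1, 37.5 and 321 UMIs as lowest, median and highest value in an NK cell. The other tumor cells held Spp1 at 824 CPM. Car2, carbonic anhydrase 2, stood at 577 CPM in NK cells and 11.6 CPM in T cells, a ratio of 49.6 (23.8 to 120). Xcl1, a chemokine that attracts cross-presenting dendritic cells, was present in 6 of 10 NK cells at 1291 CPM, with 42.7% of the UMIs in 1 cell, and had a ratio of 9.26 (7.12 to 12.1) over T cells. As log2 ratios this was 3.21, against 2.30 over Cd8 T cells alone and 1.87 with the stricter lymphocyte gate. Tnfrsf9, the costimulatory receptor 4-1BB, was present in all 10 NK cells with 7, 12.5 and 38 UMIs and had a ratio of 2.44 over T cells.

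T-cell activation and checkpoint genes were lower in NK cells, as were class II and interferon genes. The Cd3 genes are lower by the gate, with Cd3d at least 19.3-fold, Cd3e at least 9.51-fold and Cd3g 28.4-fold lower. Tnfrsf4, the costimulatory receptor OX40, had 0 UMIs in NK cells and 523 CPM in T cells, at least 20.3-fold lower. Of 12 checkpoint and exhaustion genes 6 were lower and 1 higher (median log2 ratio -1.09), and of 6 regulatory T-cell genes 5 were lower and 0 higher (median -2.79), Ikzf2 by 7.26-fold and Ctla4 by 6.63-fold. Among 21 genes of the interferon response 10 were lower and 2 higher, and their median log2 ratio was -0.96. Isg15, an interferon-induced ubiquitin-like protein, stood at 94.7 CPM in NK cells and 642 CPM in T cells, 6.78-fold lower (3.75 to 13.7). Ifi27l2a, another interferon-induced gene, stood at 155 CPM in NK cells and 2764 CPM in T cells, 17.8-fold lower (11.3 to 30.2). Il1b was 30.5-fold lower (10.4 to 148), Cd74 14.96-fold (9.04 to 26.8) and H2-Aa 15.7-fold (8.98 to 30.6). These 3 genes are also genes of macrophages and dendritic cells, and 15 T cells but 0 NK cells held 20 or more UMIs of Cd74. Without those 15 cells Cd74 was lower by 1.17 on the log2 scale and Il1b by 3.57.

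Cd8 T cells carried cytotoxic, NK-receptor and chemokine transcripts, and Cd4 T cells carried costimulatory and regulatory ones. Of 2016 genes with at least 30 UMIs, 119 met the size rule as higher in Cd8 T cells (5.9%) and 119 as lower (5.9%), and the median log2 ratio over all genes compared was -0.075. Of 12 cytotoxic effectors 9 were higher and 0 lower in Cd8 T cells, and the median log2 ratio was 2.37. Gzmb stood at 1254 CPM in Cd8 T cells, with 0, 6 and 71 UMIs as lowest, median and highest value and 21 of 31 cells positive. In Cd4 T cells Gzmb stood at 295 CPM, with 5 of 13 cells positive. The Gzmb ratio was 4.25 (3.09 to 5.97), and the ranges overlapped. Nkg7 had a ratio of 11.9 (7.54 to 19.9), being present in 28 of 31 Cd8 and 3 of 13 Cd4 T cells. Gzmf was at least 10.6-fold higher, on 79 UMIs of which 60.8% lay in 1 cell. Gzma was at least 6.29-fold higher, and 97.9% of its Cd8 UMIs lay in 1 cell. Among all T cells, 1 Cd8 T cell held 74.3% of the Gzmd UMIs and 77.4% of the Gzme UMIs. Cd8a itself, at least 19.5-fold higher, belongs to the subset rule.

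Of the NK receptors and lineage genes 8 were compared, and 6 were higher and 0 lower in Cd8 T cells (median log2 ratio 1.78). The 6 were Klrc1, Klrc2, Klrd1, Klrk1, the adaptor Fcer1g, which is also a myeloid gene, and Xcl1, which is also on the cytokine list. Klrd1 had 424 CPM in Cd8 T cells and 0 UMIs in Cd4 T cells, at least 20.1-fold higher, and was present in 26 of 31 Cd8 T cells. Klrk1 had 455 CPM in Cd8 T cells and 14.1 CPM in Cd4 T cells, a ratio of 32.3 (8.81 to 269). Of 9 cytokine and chemokine genes 6 were higher and 0 lower, and their median log2 ratio was 2.35. Ccl5, a chemokine of effector T cells, stood at 4620 CPM in Cd8 T cells (0, 27 and 267 UMIs, 27 of 31 cells) and 851 CPM in Cd4 T cells, a ratio of 5.43 (4.51 to 6.59). Ccl4 was 26.7-fold higher (7.25 to 223) and Ccl3 5.70-fold. Xcl1 was present in 9 of 31 Cd8 T cells and had 0 UMIs in Cd4 T cells, at least 12.5-fold higher. Ifng, the macrophage-activating cytokine, was 5.09-fold higher (1.61 to 25.8). Runx3, the factor that holds the Cd8 lineage, was 2.16-fold higher (1.19 to 4.26). Cxcr6, a chemokine receptor of tissue-resident cells, was at least 7.76-fold higher.

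**Figure D3:**
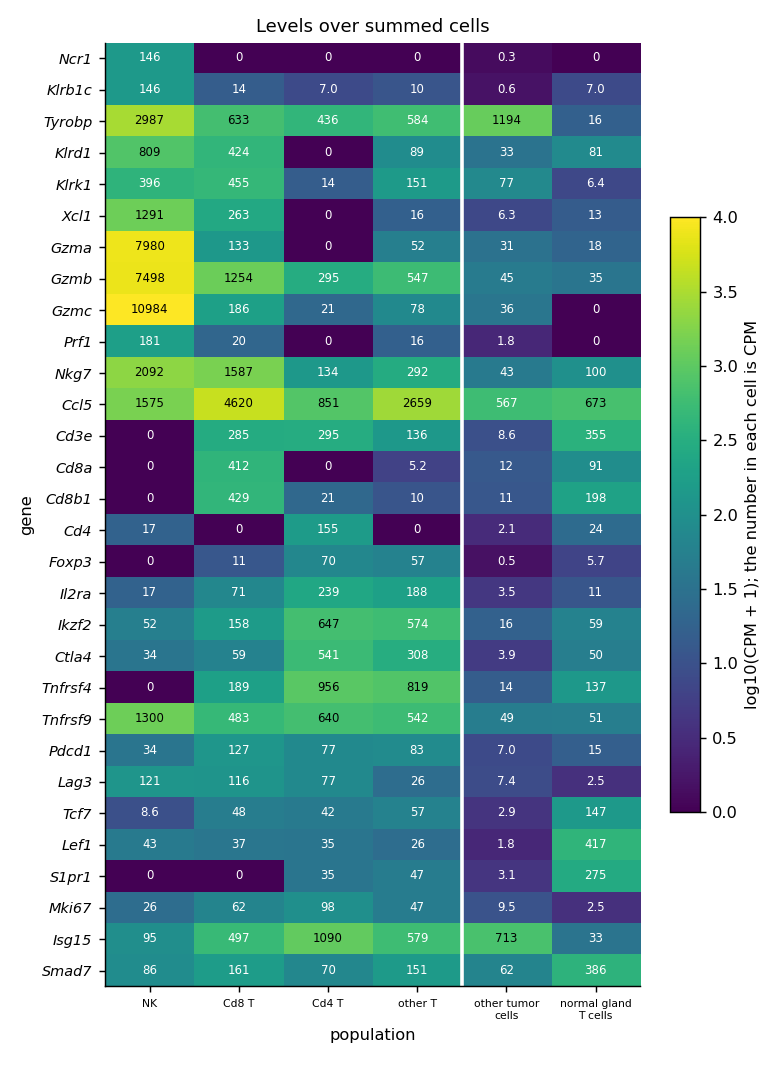
Rows are 30 genes and columns are NK cells, Cd8 T cells, Cd4 T cells, other T cells, the other tumor cells and the T cells of the normal gland; colour is log10 of CPM with 1 added, and the number in each box is CPM. Gzmc is highest in the NK column (10984 CPM), Ccl5 is highest in the Cd8 column (4620 CPM), and Tnfrsf4 is highest in the Cd4 column (956 CPM).

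Of the inhibitory receptors, Pdcd1 and Lag3 were present in both lineages, and Ctla4 stood higher in Cd4 T cells. Pdcd1, which encodes PD-1, stood at 127 CPM in Cd8 T cells and 77.4 CPM in Cd4 T cells, a ratio of 1.64 (0.837 to 3.52). Lag3 stood at 116 CPM in Cd8 T cells and 77.4 CPM in Cd4 T cells, a ratio of 1.497 (0.756 to 3.23). Neither met the size rule, and intervals this wide do not show equal levels. Ctla4, which competes with Cd28 for ligand, stood at 59.3 CPM in Cd8 T cells and 541 CPM in Cd4 T cells, 9.13-fold lower in Cd8 T cells (5.58 to 15.6). A single Cd4 T cell held 58.4% of the Cd4 group's Ctla4 UMIs, and the gene was present in 10 of 13 Cd4 and 11 of 31 Cd8 T cells.

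Of 8 costimulation receptors 4 were lower and 1 higher in Cd8 T cells (median log2 ratio -0.83), and of 6 regulatory T-cell genes 5 were lower and 0 higher (median -1.51). Tnfrsf4 stood at 189 CPM in Cd8 T cells (0, 1 and 10 UMIs) and 956 CPM in Cd4 T cells (0, 7 and 25 UMIs), 5.06-fold lower (3.75 to 6.88). Ikzf2, the factor Helios of regulatory T cells, stood at 158 CPM in Cd8 T cells and 647 CPM in Cd4 T cells (0, 6 and 21 UMIs), 4.09-fold lower (2.90 to 5.81). Icos was 3.30-fold lower, Il2ra, the high-affinity interleukin 2 receptor chain, 3.39-fold, Tnfrsf18 2.37-fold and Gata3 3.26-fold (1.49 to 7.29). Cd81, a tetraspanin, was 9.96-fold lower (4.71 to 23.5), and Itgb7, the integrin subunit beta 7, 5.27-fold (2.89 to 10.0). Actb, which encodes beta-actin, stood at 7051 CPM in Cd8 T cells and 19028 CPM in Cd4 T cells, 2.70-fold lower (2.55 to 2.85). S100a9 (53.4-fold lower) and S100a8 (10.3-fold), proteins of neutrophils, rested on 1 Cd4 T cell that held 97.3% and 93.9% of the Cd4 UMIs.

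Class II genes were higher in Cd8 T cells, but this rested on the Cd74-rich cells. H2-Aa stood at 1988 CPM in Cd8 and 134 CPM in Cd4 T cells, a ratio of 14.9 (9.46 to 24.9). H2-Ab1 had a ratio of 14.4 (9.15 to 24.1) and H2-Eb1 one of 17.7 (9.79 to 35.6). Of the 15 cells with 20 or more UMIs of Cd74, 8 were Cd8 T cells and 1 was a Cd4 T cell. Without them the log2 ratios were 0.62 for H2-Aa, 0.25 for H2-Ab1 and 0.16 for H2-Eb1, and none of these 3 genes met the size rule. Ctla4 remained lower, by 1.91 on the log2 scale, and the Gzmb log2 ratio was 2.97.

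**Figure D4:**
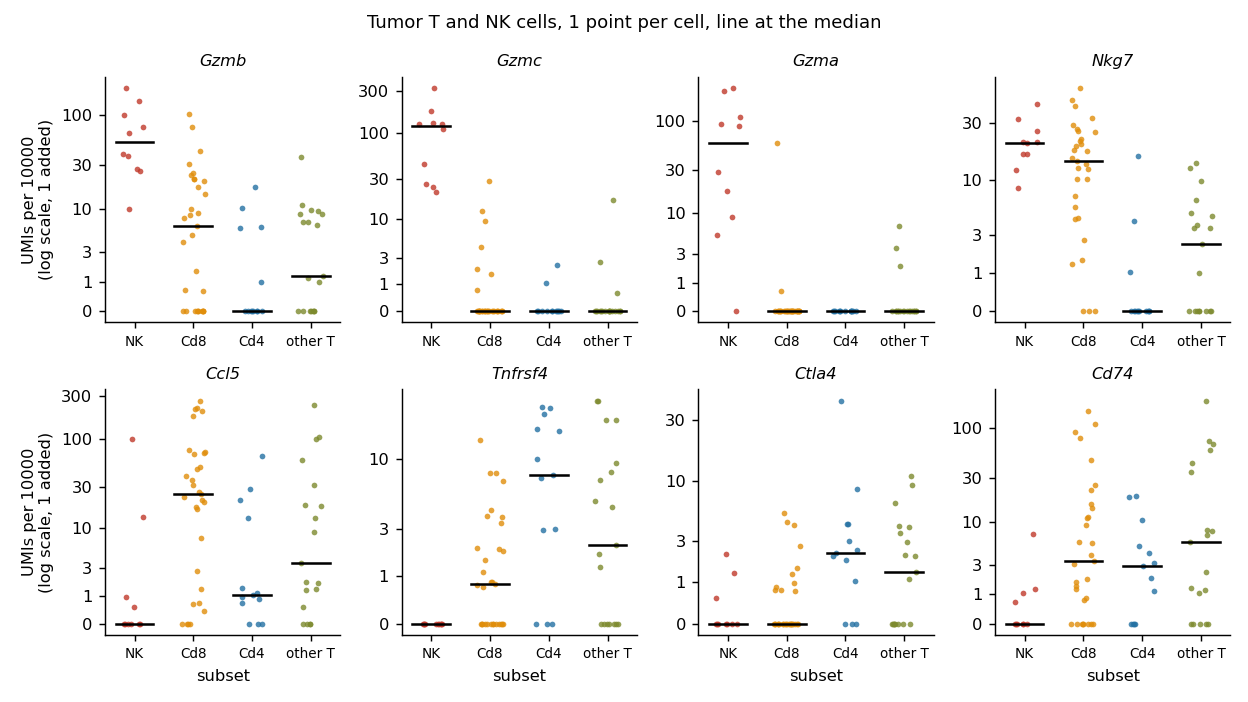
Points are single cells and the y axis is their UMIs per 10000, on a log scale with 1 added, for Gzmb, Gzmc, Gzma, Nkg7, Ccl5, Tnfrsf4, Ctla4 and Cd74 in NK cells, Cd8, Cd4 and other T cells, and the line is the median of the group. Gzmb and Gzmc lie highest in NK cells, Ccl5 in Cd8 T cells and Tnfrsf4 in Cd4 and other T cells. For Ctla4 and Cd74 single cells lie far above the median of their group.

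The other T cells, with neither coreceptor called, lay between the Cd8 and Cd4 T cells for several of these genes. Nkg7 stood at 292 CPM in them, Gzmb at 547 CPM (12 of 19 cells) and Ccl5 at 2659 CPM, each between the Cd8 and Cd4 levels. Tnfrsf4 stood at 819 CPM, Ikzf2 at 574 CPM (13 of 19 cells) and Ctla4 at 308 CPM, nearer to the Cd4 level. Taking Cd4 and other T cells together as the comparison for Cd8 T cells gave log2 ratios of 2.29 for Klrk1 and 2.82 for Nkg7.

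Foxp3, the lineage factor of regulatory T cells, was present in 13 of 63 T cells (20.6%, 11.47 to 32.7%) and in 0 of 10 NK cells. These were 5 Cd4, 5 other and 3 Cd8 T cells, and 7 of the 13 had a single UMI, with 4 UMIs as the highest. In the other tumor cells Foxp3 was present in 6 of 927 cells (0.647%), and in the C1q-high cells in 0 of 120, which allows a share of cells with a UMI of up to 2.5% (3 counts of the total). The Foxp3 level was 70.3 CPM in Cd4 T cells, 57.4 CPM in other T cells and 11.3 CPM in Cd8 T cells. Several regulatory and costimulation genes stood higher in T cells with Foxp3 than in T cells without it, given here as levels and without a test. Ikzf2 stood at 863 CPM with Foxp3 and 250 CPM without, Tnfrsf4 at 1255 CPM with and 336 CPM without, Tnfrsf18 at 756 CPM with and 274 CPM without, and Icos at 506 CPM with and 153 CPM without. Capg, also on the regulatory list, stood at 492 CPM with Foxp3 (383 to 623) and 385 CPM without (335 to 441), with overlapping intervals. Ctla4 stood at 656 CPM with Foxp3 and 119 CPM without, and 1 cell held 48.9% of the UMIs in cells with Foxp3. Klrd1 stood at 14.3 CPM with Foxp3 and 301 CPM without, and Cd8a at 21.4 CPM with and 263 CPM without. Gzmb was present in 7 of the 13 cells and stood at 528 CPM with Foxp3 and 944 CPM without. Ccl5 was at 3288 CPM with Foxp3 and 3296 CPM without.

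Cells were also divided at 5 UMIs of Gzmb, a range and not a cell type. The Gzmb-high side held 41 cells (10 NK, 18 Cd8, 9 other and 4 Cd4 T cells), no cell had 3 or 4 UMIs, 7 had 5 or 6, and 25 had 0. Of 2970 genes, 135 were higher in Gzmb-high cells (4.55%) and 119 lower (4.01%), and the median log2 ratio over all genes compared was -0.03. All 10 NK cells are on the high side, and the granzyme paralogs had high ratios: Gzmc with a ratio of 365 (125 to 1772), Gzma with 158 (67.5 to 488), Gzmd with 461 and Gzmf with 398, with Gzme at least 54.3-fold and Gzmg at least 61.85-fold higher. Gzmb itself is higher by the division. Nkg7 stood at 1732 CPM in Gzmb-high cells and 304 CPM in Gzmb-low cells, a ratio of 5.71 (4.66 to 7.04). Spp1 stood at 1856 CPM in Gzmb-high and 91.9 CPM in Gzmb-low cells, a ratio of 20.2 (14.3 to 29.5). Klrd1 was 6.21-fold higher, Tnfrsf9 3.63-fold, Lag3 2.38-fold, Pdcd1 2.26-fold and Ccl5 2.21-fold. Tcf7, a factor of naive and memory T cells, was 4.18-fold lower and Il2ra 2.01-fold lower. With means of per-cell CPM the Tcf7 log2 ratio was -1.11, and with the division at 10 UMIs of Gzmb the Ccl5 log2 ratio was 0.53, and neither then met the size rule.

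Within the 31 Cd8 T cells, where 18 were Gzmb-high, most of these genes again met the size rule. The log2 ratio of Gzmb-high over Gzmb-low Cd8 T cells was 2.25 for Nkg7, 2.003 for Klrd1, 1.80 for Tnfrsf9, 1.68 for Pdcd1, 1.51 for Lag3 and 1.27 for Ccl5. For Spp1 it was 1.76, against 4.34 over all 73 cells. Il1b stood at 168 CPM in Gzmb-high and 1309 CPM in Gzmb-low cells, 7.77-fold lower (6.08 to 10.05), and was lower by 3.08 on the log2 scale within Cd8 T cells. With the division at 1 UMI of Gzmb, however, the Il1b log2 ratio was 0.41 and that of Cxcl2 0.0042, and neither met the size rule. Isg15 was 2.31-fold lower in Gzmb-high cells but had a log2 ratio of -0.09 within Cd8 T cells. Of the 119 genes lower in Gzmb-high cells, 12 had at least 50% of the Gzmb-low UMIs in 1 cell, among them several with the lowest upper bounds. Igfbp3 was at least 17.8-fold lower with 100% of the Gzmb-low UMIs in 1 cell, Sparc 48.35-fold with 97.4%, Igfbp7 24.6-fold with 93.3%, S100a9 11.85-fold with 95.4% and S100a8 5.10-fold with 86.9%. Slpi, a protease inhibitor, was 5.04-fold lower, with 57.0% of the Gzmb-low UMIs in 1 cell, and Cxcl2, which encodes a chemokine that attracts neutrophils, 4.42-fold (3.19 to 6.22). The lower genes also included Rsad2 (log2 ratio -2.16) and Usp18 (-1.41) of the interferon response, Mcm3 (-1.15), Mcm6 (-1.02) and Ccna2 (-1.03) of the cell cycle, and Cd247 (-1.24), the zeta chain of the T-cell receptor complex, and in none of these did 1 cell hold 50% of the Gzmb-low UMIs.

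Set against the other 927 tumor cells, the 73 cells were higher for T-cell signalling, cytotoxic and costimulatory genes and lower for genes of stroma, tumor cells and macrophages. The rule used this contrast, so the counts are description. Of 9941 genes with at least 50 UMIs, 789 were higher (7.94%) and 1576 lower (15.9%), and the median log2 ratio over all genes compared was -0.205, and with division by the median ratio 1046 were higher and 1163 lower. All 14 compared genes of the T-cell receptor complex were higher, with a median log2 ratio of 4.48, the Cd3 genes by the gate. Lck, the kinase that starts receptor signalling, was 27.2-fold higher (21.9 to 33.8), and Zap70, the kinase that follows it, 20.6-fold. Lat was 22.7-fold higher, Cd5 32.4-fold and Cd28 34.6-fold (25.2 to 47.9). Of 15 cytotoxic effectors 14 were higher and 0 lower (median log2 ratio 4.66). Gzmb stood at 1818 CPM in the 73 cells and 45.3 CPM in the other tumor cells, a ratio of 40.1 (36.6 to 43.9), and 84 of 927 other tumor cells held a Gzmb UMI (9.06%). Gzmc had a ratio of 47.4 (42.9 to 52.4), Gzma 39.7 (35.6 to 44.4), Gzmd 84.4 (69.7 to 103), Gzme 37.8, Gzmf 51.65 and Gzmg 559 (279 to 1310). A single NK cell held 75.7% of the 73 cells' Gzmg UMIs. Nkg7 stood at 1094 CPM in the 73 cells and 43.3 CPM in the other tumor cells, a ratio of 25.3 (22.8 to 28.0).

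All 8 compared costimulation receptors were higher than in the other tumor cells (median log2 ratio 4.34), and 11 of 15 checkpoint genes were higher and 0 lower (median 2.07). Ctla4 stood at 200 CPM in the 73 cells and 3.90 CPM in the other tumor cells, a ratio of 51.3 (38.0 to 70.1). Tnfrsf4 stood at 448 CPM in the 73 cells and 14.1 CPM in the other tumor cells, a ratio of 31.8 (26.8 to 37.8). Tnfrsf18 was 25.8-fold higher, Icos 26.7-fold, Il2ra 34.3-fold, Tox 23.8-fold, Pdcd1 13.4-fold and Lag3 11.9-fold. Havcr2, which encodes TIM-3 and is also a myeloid gene, had a ratio of 1.25 and did not meet the rule. Klrg1, an inhibitory receptor, was 58.3-fold higher (31.9 to 113) on 45 UMIs in 13 cells, none of them a Cd8 T cell. Xcl1 was 48.8-fold higher (38.5 to 62.3). Ccl5 was 5.37-fold higher (5.14 to 5.62), and Ifng 12.004-fold.

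Not every lymphocyte gene set the cells apart from the rest of the tumor library. Tyrobp stood at 926 CPM in the 73 cells and 1194 CPM in the other tumor cells, and Fcer1g at 848 CPM in the 73 cells and 1461 CPM in the other tumor cells, and neither met the rule. Among 23 genes of the interferon response 1 was higher and 3 lower (median log2 ratio -0.49), and 6 of 18 genes of glycolysis and hypoxia were lower and 0 higher (median -0.60), with Slc2a1, the glucose transporter, 3.84-fold lower and Hk2 2.36-fold. Tnf was 3.82-fold lower. Of 11 naive and egress genes 6 were higher (Bcl2, Ccr7, Lef1, S1pr1, Satb1 and Tcf7) and 2 lower (Igfbp4 and Klf2). Their median log2 ratio was 2.27. Klf2 was 4.11-fold lower, at 218 CPM in the 73 cells and 895 CPM in the other tumor cells. The genes with the lowest upper bounds were genes of stroma and tumor cells. They included Cald1 (136-fold lower), Aebp1 (57.1-fold), Col6a1 (107-fold), Col3a1 (100.4-fold) and Cyr61 (99.6-fold), with Tpm2 at least 25.7-fold, Fkbp11 at least 21.96-fold and 4930550L24Rik at least 17.9-fold lower. Ccl2, the monocyte chemokine, stood at 67.1 CPM in the 73 cells and 1375 CPM in the other tumor cells, 20.5-fold lower (15.7 to 27.3). Rhox5 (61.8-fold lower), C1qa (43.9-fold) and C1qb (62.8-fold) are lower by the gate.

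The other tumor cells contain the 66 cells with lymphocyte UMIs that the gate left out. Against other tumor cells with 0 UMIs of the 5 lymphocyte gate genes, the log2 ratio was 8.43 for Gzmb (5.33 with all other tumor cells), 8.63 for Nkg7 (4.66) and 8.46 for Ctla4 (5.68). They also contain 177 cells high in Rhox5 with a median of 43380 UMIs, which hold 8850181 of the 15640265 UMIs of the other tumor cells. Against other tumor cells with at most 4 UMIs of Rhox5, the log2 ratio was 4.37 for Gzmb, 3.61 for Nkg7, 4.63 for Ctla4 and 1.39 for Ccl5.

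The same gate applied to the normal gland library gave 466 of 1806 cells (25.8%, 23.8 to 27.9%), all with a Cd3 sum of at least 3. No NK cell passed there, and 0 of 466 cells allows a share of up to 0.644% (3 counts of the total). That share counts cells that pass the gate, and an NK cell at normal gland depth could miss the limit of 2 UMIs. Of the 466 cells 117 were Cd8 T cells, 34 Cd4 T cells and 315 other T cells. Their median depth was 3185.5 UMIs with 990.5 genes and 3.10% mitochondrial UMIs, against 9321 UMIs, 2363 genes and 1.78% in the tumor cells, and this depth gap can set the shares of cells that pass a fixed limit. With 1 library for each tissue, a difference between tumor and normal gland cannot be told apart from a difference between the libraries.

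Relative to these normal gland cells, the tumor cells were higher for cytotoxic, proliferation, interferon and glycolysis genes and lower for genes of naive T cells and of the TGF-beta response. Of 4136 genes with at least 50 UMIs, 1015 were higher (24.5%) and 454 lower (11%), and the median log2 ratio over all genes compared was 0.301. Division by the median ratio gave 659 higher and 690 lower. Of 13 cytotoxic effectors 11 were higher and 0 lower (median log2 ratio 5.70). Gzmb stood at 1818 CPM in the tumor cells and 35.0 CPM in the normal gland cells, a ratio of 51.95 (39.7 to 69.3). With every cell thinned to 2000 UMIs, 53.4% of the 73 tumor cells and 3.73% of 402 normal gland cells held a Gzmb UMI, and 64 shallower normal gland cells were left out. Unthinned, the share was 65.8% in the tumor cells and 5.58% in the normal gland cells. Among T cells only, without the NK cells, the Gzmb log2 ratio was 4.62, and without NK and Cd8 T cells it was 3.70. Gzmc had 1691 CPM in the tumor cells and 0 UMIs in the normal gland cells, at least 886-fold higher, and Gzmd (373-fold), Gzme (132-fold), Gzmf (322-fold) and Gzmg (150-fold) were higher by at least the values given. No normal gland cell was an NK cell by the gate. The tumor NK cells held 1276 of the 1360 Gzmc UMIs, 538 of 573 for Gzmd and 171 of 202 for Gzme. They also held 415 of 494 for Gzmf and 220 of 230 for Gzmg. Nkg7 was 10.96-fold higher, and thinned to 2000 UMIs it was present in 57.5% of tumor and 12.2% of normal gland cells.

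Of the 13 naive and egress genes compared, 0 were higher in the tumor cells and 10 lower, and the median log2 ratio was -1.90. S1pr1, the receptor by which lymphocytes leave tissue, stood at 17.4 CPM in the tumor cells and 275 CPM in the normal gland cells, 15.8-fold lower (9.33 to 29.2). Lef1, a factor of naive T cells, stood at 34.8 CPM in the tumor cells and 417 CPM in the normal gland cells, 11.97-fold lower (8.203 to 18.2). Klf2, which drives S1pr1, was 4.64-fold lower, Tcf7 3.38-fold and Satb1 5.48-fold. Without Cd8 and NK cells S1pr1 was lower by 2.83 on the log2 scale. With cells thinned to 2000 UMIs before gating, Lef1 was lower by 2.96. Further genes with low upper bounds were Fam101b (84.9-fold lower), Tmem64 (19.7-fold), Dusp10 (10.55-fold), Tdrp (13.9-fold), Znrf3 (37.9-fold), Itm2a (18.6-fold), Pik3ip1 (11.9-fold), Rasgrp2 (10.1-fold) and Gm12840 (8.87-fold), with Retnla at least 22.3-fold lower.

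The study's title names a TGF-beta-driven pathway, so the TGF-beta response genes of these cells are given. Of 7 compared, 0 were higher and 6 lower than in normal gland cells, and their median log2 ratio was -1.55. Smad7, the feedback inhibitor that the pathway induces, stood at 132 CPM in the tumor cells and 386 CPM in the normal gland cells, 2.93-fold lower. Pmepa1, another induced inhibitor, was 6.96-fold lower, and the repressors Ski and Skil were 5.42-fold and 2.16-fold lower. Tgfbr2, the ligand-binding receptor, was 6.10-fold lower. Against the other tumor cells of the same library the direction differed. Of 9 genes of the list compared there, 3 were higher (Pmepa1, Skil and Smad7), 0 lower and 6 neither. Their median log2 ratio was 0.335. The cause of the difference between the 2 comparisons was not tested.

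Of 17 proliferation genes 15 were higher in the tumor cells and 0 lower, and the median log2 ratio was 2.65. Mki67 was 23.45-fold higher, Birc5 80.8-fold (27.0 to 397) and Ube2c 34.8-fold. Among 22 genes of the interferon response 17 were higher and 0 lower (median log2 ratio 2.06). Isg15 stood at 563 CPM in the tumor cells and 33.1 CPM in the normal gland cells, a ratio of 17.03 (12.8 to 23.1), and Rsad2, which encodes viperin, was 51.8-fold higher. Genes of glycolysis and hypoxia were higher in 7 of 9 cases and lower in 0 (median log2 ratio 1.69), with Tpi1 17.9-fold and Pkm 4.80-fold higher. The checkpoint gene Lag3 was 34.7-fold higher, Pdcd1 6.19-fold, Ctla4 4.03-fold and Tnfrsf9 12.6-fold. Among the genes of the T-cell receptor complex, Cd3e had a ratio 1.69-fold lower in the tumor cells and did not meet the rule.

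Several of the genes that were highest over the normal gland cells were also present at high levels in the rest of the tumor library. Il1b stood at 678 CPM in the 73 cells, 1083 CPM in the other tumor cells and 0.636 CPM in the normal gland cells. Fcer1g stood at 848 CPM in the 73 cells, 1461 CPM in the other tumor cells and 7.63 CPM in the normal gland cells. Ifitm3 stood at 882 CPM in the 73 cells, 2470 CPM in the other tumor cells and 9.54 CPM in the normal gland cells, and Spp1 at 1068 CPM, against 824 CPM in the other tumor cells and 12.7 CPM in the normal gland cells. Isg15 stood at 713 CPM in the other tumor cells. Macrophage and monocyte markers summed to 538 CPM in the 73 cells and 4492 CPM in the other tumor cells, against 65.5 CPM in the normal gland cells. The part of free or captured macrophage RNA in these differences was not tested. Ifitm1 was at least 171-fold, Ccl22 at least 69.7-fold and Il1r2 305-fold higher than in the normal gland.

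Tumor Cd8 T cells were then set against normal gland Cd8 T cells. Of 2713 genes with at least 30 UMIs, 785 were higher in tumor Cd8 T cells (28.9%) and 249 lower (9.18%), and the median log2 ratio over all genes compared was 0.439, and after division by the median ratio 485 were higher and 480 lower. Gzmb stood at 1254 CPM in tumor and 37.5 CPM in normal gland Cd8 T cells, a ratio of 33.4 (20.9 to 57.0). Pdcd1 stood at 127 CPM in tumor and 2.08 CPM in normal gland Cd8 T cells, a ratio of 61.0 (10.4 to 2462), on 1 UMI in the normal gland cells. Lag3 was at least 18.5-fold higher, Tnfrsf9 58.0-fold (22.2 to 215), Ccl4 90.2-fold and Ifng 51.5-fold. Ccl4 did not meet the size rule as higher in the 73 cells than in the other tumor cells. Klrk1 had 455 CPM in tumor and 0 UMIs in normal gland Cd8 T cells, at least 72.8-fold higher. S1pr1 had 0 UMIs in the 31 tumor Cd8 T cells and 225 CPM in the normal gland ones, at least 26.6-fold lower. Lef1 was 12.1-fold lower (6.95 to 23.2), Tcf7 2.95-fold and Klf2 4.87-fold. Of 12 naive and egress genes 8 were lower and 0 higher (median log2 ratio -1.84). Of 7 TGF-beta response genes 4 were lower, Pmepa1 by 8.61-fold and Smad7 by 2.45-fold, and 1 was higher, the ligand gene Tgfb1, with 254 CPM in tumor and 87.5 CPM in normal gland Cd8 T cells, a ratio of 2.91 (1.99 to 4.30). Cd8a had a ratio of 1.66 and did not meet the rule, in cells chosen by Cd8a and Cd8b1 UMIs at unequal depth.

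Tumor Cd8 T cells with fewer than 5 UMIs of Gzmb still differed from normal gland Cd8 T cells, with log2 ratios of 1.70 for Nkg7, 2.15 for Ccl5 and 4.61 for Tnfrsf9. By lower bound, Klrk1 stood among the leading genes with several that were also present in the other tumor cells: Il1b (527-fold higher), Fcer1g (404-fold), Ifitm3 (142-fold), Ifitm2 (214-fold), Cst3 (68.8-fold), Lgals3 (88.0-fold) and Spp1 (at least 42.5-fold). Cst3, which encodes cystatin C, stood at 3725 CPM in tumor Cd8 T cells, 2110 CPM in the other tumor cells and 54.2 CPM in normal gland Cd8 T cells. Macrophage markers summed to 672 CPM in tumor and 60.4 CPM in normal gland Cd8 T cells, and their part was not tested. Without the Cd74-rich cells the Il1b log2 ratio was 7.13. Lower genes also included Retnla (at least 10.1-fold), Fam101b (39.1-fold), Dusp10 (11.3-fold), Gm9493 (5.56-fold), Gm10073 (5.30-fold) and Gm10020 (7.78-fold).

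In Cd4 T cells, 310 of 1025 genes were higher in the tumor (30.2%) and 130 lower (12.7%), and the median log2 ratio over all genes compared was 0.427, or 200 and 218 after division by the median ratio. Of 23 interferon response genes 11 had the 30 UMIs needed, and all 11 were higher, with a median log2 ratio of 3.12. A gene with few UMIs in the normal gland cells reaches that minimum only through the tumor cells, so this count is description. Isg15 stood at 1090 CPM in tumor and 27.7 CPM in normal gland Cd4 T cells, a ratio of 39.4 (13.2 to 193), on 3 UMIs of 1 cell in the normal gland. Ctla4 stood at 541 CPM in tumor and 73.8 CPM in normal gland Cd4 T cells, a ratio of 7.34 (3.54 to 17.6), and without the Cd74-rich cell its log2 ratio was 1.72. Il2ra was 13.0-fold higher. Ikzf2 was 7.01-fold higher (3.65 to 15.1), with 100% of the normal gland UMIs in 1 cell, and Tnfrsf4 2.47-fold. Against normal gland cells of at least 4000 UMIs the log2 ratio was 0.82 for Ikzf2 and -0.24 for Tnfrsf4, and neither met the rule. Of 6 naive and egress genes 5 were lower and 0 higher (median log2 ratio -3.39), with Klf2 at 120 CPM in tumor and 1079 CPM in normal gland Cd4 T cells, 9.03-fold lower (5.404 to 16.02). Lef1 was 13.4-fold lower and S1pr1 12.9-fold. Of 4 TGF-beta response genes 3 were lower, Smad7 by 3.41-fold. Cd4 itself was 2.27-fold lower, in cells chosen by having a Cd4 UMI at unequal depth (median 9485 UMIs in tumor and 3133.5 UMIs in normal gland Cd4 T cells), so the choice fixes this ratio in part.

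The leading genes of the Cd4 comparison were partly carried by single cells. S100a9 (114-fold higher, 97.3% in 1 cell), S100a8 (37.7-fold, 93.9%), Wfdc17 (at least 14.99-fold, 83.1%) and Cst3 (30.1-fold, 59.1%) had most of their tumor UMIs in 1 cell. Il1b was at least 19.8-fold, Ifitm1 at least 19.6-fold and 2810417H13Rik at least 15.8-fold higher. Tmem64 was at least 18.8-fold lower, Gm12840 32.8-fold, Vps37b 13.8-fold, Prkca 17.7-fold and Pdlim1 19.02-fold.

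**Figure D5:**
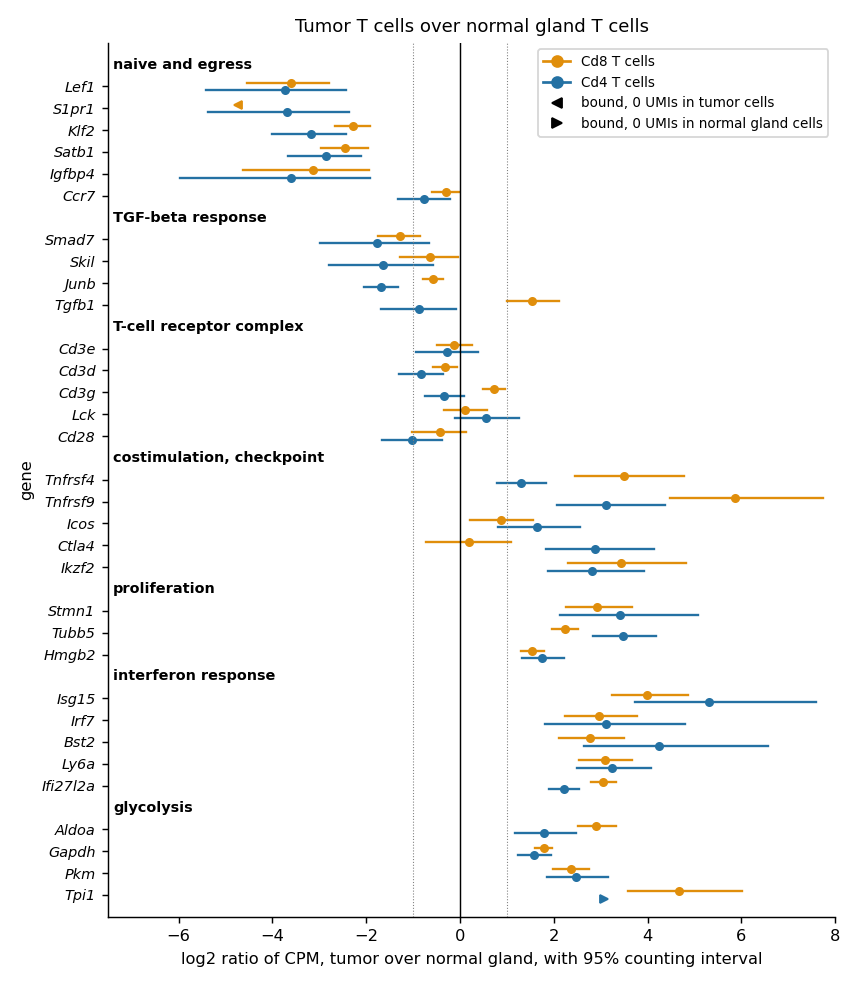
The x axis is the log2 ratio of tumor over normal gland CPM for Cd8 T cells (orange) and Cd4 T cells (blue), rows are genes by group, lines are 95% intervals for counting error, and triangles mark bounds where 1 side had 0 UMIs. S1pr1, Lef1, Klf2 and Smad7 lie below 0 in both lineages and Isg15 lies above 0 in both.

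Proliferation transcripts were unevenly spread over the 73 cells. The 22 proliferation genes summed to 6972 CPM in the 73 cells, 3764 CPM in the other tumor cells and 2111 CPM in the normal gland cells. Single cells among the 73 ran from 429 to 22240 CPM with a median of 3797, against medians of 2254 CPM in the other tumor cells and 1752 CPM in the normal gland T cells of the gate. By subset the summed level was 4390 CPM in NK cells, 6605 CPM in Cd8 T cells, 8931 CPM in Cd4 T cells and 7759 CPM in other T cells. The median cell stood at 1466 CPM in NK cells, below the median of the other tumor cells, and at 2906 CPM in Cd8 T cells, 5808 CPM in Cd4 T cells and 4520 CPM in other T cells. Thinned to 2000 UMIs, 30 of 73 cells (41.1%, and 2 of the 10 NK cells) held a UMI of a mitotic gene, against 17.5% of the other tumor cells, 60.5% of the cells high in Rhox5, 8.33% of the C1q-high cells and 3.73% of 402 normal gland cells. Unthinned, 41 of the 73 cells held one. Over the other tumor cells 8 of the 22 proliferation genes were higher, 1 lower and 13 neither (median log2 ratio 0.465). Of all genes compared there, 7.94% were higher and 15.9% lower. Mki67 was 6.31-fold higher, while Cdc20 was 2.31-fold lower. Against other tumor cells with at most 4 UMIs of Rhox5 the Cdc20 log2 ratio was 1.20.

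Transcripts of other cell types were present in some of the 73 cells. The 15 Cd74-rich cells (8 Cd8, 6 other and 1 Cd4 T cells) held class II genes at 22715 CPM, against 631 CPM in the other 58, and Cd74 at 6926 CPM, against 260 CPM. Pan-T markers summed to 2009 CPM (1802 to 2234) in the Cd74-rich cells and 2645 CPM (2520 to 2775) in the other 58, which include the 10 NK cells. Dendritic markers summed to 1439 CPM in the Cd74-rich cells and 479 CPM in the others, and macrophage markers to 916 CPM in the Cd74-rich cells and 437 CPM in the others. Ccl22, a dendritic chemokine, was present in 6 of the 15 and 6 of the 58 cells, and Il1b in 14 of 15 and 28 of 58. The part of transcripts from other cells in these values was not tested. Just inside the limit lay 3 cells with 20 to 25 UMIs of Cd74, and just outside it 1 cell with 15 to 19. Over all 73 cells, B-cell markers summed to 11.2 CPM, fibroblast markers to 7.46 CPM, epithelial and EO771 markers to 31.1 CPM and neutrophil markers to 413 CPM, 75.9% of the last from 1 Cd4 T cell. Markers of type 2 innate lymphoid cells summed to 225 CPM, with Il5 and Calca at 0.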

How the data were processed

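Single-cell RNA was measured in 2 libraries, 1 of EO771 tumors (TEC) and 1 of normal mammary glands (NEC). The deposited table holds UMI counts per gene and cell, whole numbers with no normalization by the authors, for 13774 genes and 2806 cells. Cell Ranger 2.0.2, STAR 2.5.1b, Seurat and mm10 are named per the submitters' processing notes, without settings. Columns starting with "tumor" were taken as TEC, and those starting with "control" as NEC on that word alone.

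Cells were gated and split by the limits given above, with no further cell filter. UMIs were summed over the cells of a group and divided by the group's total to give CPM. Genes needed 50 UMIs over both groups (30 between subsets). CPM has exact Poisson intervals, shares exact binomial ones and ratios exact Clopper-Pearson ones at 95%; UMI totals set their width, and they cover counting error only. With 1 library per group there was no test. Subsets within the tumor library share that library.

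The members and gene lists were chosen with earlier results of these data known. Named genes are the list members and, per direction, the 12 (other tumor cells, normal gland) or 8 (between subsets) genes with the most extreme interval bound, other than immunoglobulin, hemoglobin, ribosomal protein or mitochondrial genes. The gene counts rest on 7 comparisons. The alternatives were median-of-ratios scaling, means of per-cell CPM, UMI minimums of 20 and 5, stricter and looser gates, thinning, Scrublet in scanpy 1.11.5 and leaving out groups of cells. Python 3.11.15, numpy 2.4.6, pandas 2.3.3, scipy 1.17.1 and matplotlib 3.10.9 were used.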

Additional observations from a re-analysis of the deposited data

Results flagged for a closer look

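Of the genes compared between tumor and normal gland in both lineages, 2 were past the size rule as higher in Cd8 T cells and as lower in Cd4 T cells. Stat3, a transcription factor downstream of cytokine receptors, had a log2 ratio of 1.11 in Cd8 T cells, on 124 UMIs in tumor and 78 in normal gland cells, and -1.05 in Cd4 T cells, on 19 and 30 UMIs. Uhrf2, a ubiquitin ligase that binds methylated DNA, had a log2 ratio of 1.58 in Cd8 T cells, on 84 and 38 UMIs, and -1.45 in Cd4 T cells, on 12 and 25 UMIs. With 1 library per tissue the difference between the lineages was not tested.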

How the results depend on the processing

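Of 6843 values of 614 genes under the alternatives, 6448 kept their direction and their side of the size rule, 389 no longer met the rule and 6 turned round. The last were Cdc20 over the other tumor cells with Rhox5 at most 4 (log2 ratio 1.20, -1.21 as reported), Klrd1 over the normal gland without Cd8 and NK cells (-0.39, 1.99), Tnfrsf4 in Cd4 T cells over normal gland cells of at least 4000 UMIs (-0.24, 1.304), Il1b and Cxcl2 in Gzmb-high cells with the division at 1 UMI (0.41 and 0.0042, -2.96 and -2.14) and Itga4 with it at 10 UMIs (-0.017, 1.401). The cause was not tested.

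Counts of genes higher and lower moved by over 1.5 times as follows. Division by the median ratio gave 659 and 690 (normal gland), 485 and 480 (Cd8 T cells, tumor over normal gland), 200 and 218 (Cd4 T cells) and 215 and 195 (NK over T cells). A minimum of 5 UMIs, which tests more genes, gave 1191 higher (other tumor cells), 2365 and 709 (normal gland), 1654 and 401 (Cd8), 665 and 349 (Cd4), 324 lower (Cd8 over Cd4), 203 higher (NK) and 244 and 325 (Gzmb-high). A minimum of 20 UMIs gave 1656 higher (normal gland) and 198 lower (Gzmb-high). Thinning to 2000 UMIs before gating, with 2012 genes tested, gave 404 and 236 (normal gland). Normal gland cells of at least 4000 UMIs gave 182 lower (all), 143 lower (Cd8) and 153 and 53 (Cd4). Leaving out the Cd74-rich cells gave 76 higher (Cd8 over Cd4), and the stricter lymphocyte gate gave 156 lower (NK), with an NK share of 5.36% (3 of 56 cells). Division at 1 UMI of Gzmb gave 66 lower and at 10 UMIs 84 higher. Chosen after seeing the data, tumor Cd8 T cells under 5 UMIs of Gzmb gave 457 higher, and Gzmb-high over Gzmb-low within Cd8 T cells 57 lower. The other 152 counts and shares stayed within 1.5 times or 1 interval.

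No paired analysis was possible because each group has 1 library. Subsets of 10 and 13 cells limit what can be seen at low levels. The tumor cells had a median of 9321 UMIs, against 3185.5 UMIs in the normal gland cells, while the summed UMIs behind the ratios were 804275 in the tumor cells and 1571992 in the normal gland cells.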
